A study of Kalanchoe laxiflora with 7 samples.

Results

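The stomatal basic helix-loop-helix (bHLH) transcription factors described here in the succulent Kalanchoe laxiflora are encoded by 5 gene models, KlaxSPCH1 (KlGene017537), KlaxSPCH2 (KlGene027982), KlaxFAMA1b (KlGene012763), KlaxFAMA2 (KlGene012781) and a SCRM-like gene (KlGene000465). These 5 of 27768 gene models were chosen by name, as early-stage, late-stage and candidate partner factors of the stomatal lineage. Earlier results of these data were known when they were chosen. The study compared the mature seventh leaf pair of 4 wild-type individuals with that of 3 independent KlaxMUTE1 overexpression lines (KlaxMUTE1 OE), all of the Oxford Botanical Garden (OBG) accession. The lines carry mCitrine fused to KlaxMUTE1 under the 35S promoter, which is active in most plant tissues. Each line gave 1 library, and transgenic plants without this construct were not among the 7 libraries, so the transgene and the passage through transformation cannot be told apart. The comparison asks how the other stomatal bHLH genes stand in mature leaves that carry a constantly driven MUTE.

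In Arabidopsis thaliana, stomatal bHLH factors act in sequence. SPEECHLESS (SPCH) starts the lineage and its asymmetric divisions, MUTE ends these divisions and commits the cell to become a guard mother cell, and FAMA acts last, limiting divisions and setting guard cell identity. Each of them works as a heterodimer with SCREAM (SCRM, also called ICE1) or its relative SCRM2, which are present through the whole lineage. In K. laxiflora, additional asymmetric divisions surround the guard cells with subsidiary cells. The roles given below are those of the Arabidopsis genes, and the SCRM-like gene is named only from the similarity note of its annotation. Other SCRM relatives in the genome are not described here. The paper names a further FAMA model, KlaxFAMA1a, and set it aside as a possible pseudogene or annotation error. FAMA sums and shares below cover KlaxFAMA1b and KlaxFAMA2 only.

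Between 18665659 and 24659199 reads per wild-type library and between 20679921 and 27216722 per KlaxMUTE1 OE library were counted on gene models. KlaxMUTE1 (KlGene012921), the driven gene, was counted 16950, 38933 and 55802 times in KlaxMUTE1 OE lines 1 to 3 and in none of the 4 wild-type libraries, as labelled. Values are given throughout in the order of wild-type replicates 1 to 4 and of OE lines 1 to 3, which are the labelled OE replicates. Its counts hold transgene and endogenous transcripts together. As a check of the leaf label, an RBCS1-like gene (small subunit of Rubisco) stood at 21856 TPM (a transcript's share, as counts divided by gene length and scaled to a fixed sum) on average in wild type. The summed level of 4 photosynthesis markers, most of it from the RBCS1-like gene, was 14213 to 15598 CPM (counts scaled to library size) in wild type and 6491 to 11929 CPM in KlaxMUTE1 OE. The summed level of 3 markers of dividing cells was 1.45 to 2.34 CPM in wild type and 20.6 to 66.7 CPM in KlaxMUTE1 OE. In each OE line most of this sum came from a D-type cyclin gene, CYCD3-2-like, at 12.96 to 59.4 CPM. The paper reports CycD3 homologs as induced in KlaxMUTE1 OE. The 3 markers are the cell cycle models that were also called higher 1 by 1, so their sum is no reading of dividing cells independent of those calls. Not every gene of either kind moved with its sum, as the gene lists given last show. All 7 markers had counts in every library, and both sums separated the genotypes. Both sums thus moved with genotype beside every result below, and their part in those results was not tested.

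Apart from SCRM-like, the stomatal bHLH genes were weakly represented in mature leaf RNA. In bulk RNA, fewer cells of a type and less RNA per cell cannot be told apart. In wild type, SCRM-like stood at 8.15 ± 1.22 TPM (SD, n = 4), a level above 49.3% of the 21902 gene models tested. KlaxSPCH2 reached 1.80 ± 0.852 TPM, KlaxFAMA2 1.75 ± 0.261 TPM and KlaxFAMA1b 1.35 ± 0.405 TPM, above 23.1%, 22.8% and 20.3% of the models. KlaxSPCH1 was close to absent from the counts, with 0.0086 ± 0.0172 TPM. Per length, the partner gene was therefore the highest of the 5 and KlaxSPCH1 the lowest, and this held in each of the 7 libraries.

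The 3 genes between them changed places among the wild-type libraries. KlaxSPCH2 led KlaxFAMA2 and KlaxFAMA1b on the TPM scale in wild-type replicate 1, KlaxFAMA1b led in replicate 2, and KlaxFAMA2 led in replicates 3 and 4. Their wild-type ranges overlapped. In all 3 KlaxMUTE1 OE lines the order was the same, with KlaxSPCH2 at 3.02 ± 1.26 TPM (SD, n = 3) above KlaxFAMA2 at 0.927 ± 0.355 TPM and KlaxFAMA1b at 0.761 ± 0.556 TPM. SCRM-like was at 15.8 ± 5.44 TPM in these lines and KlaxSPCH1 at 0.116 ± 0.101 TPM.

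**Figure D1:**
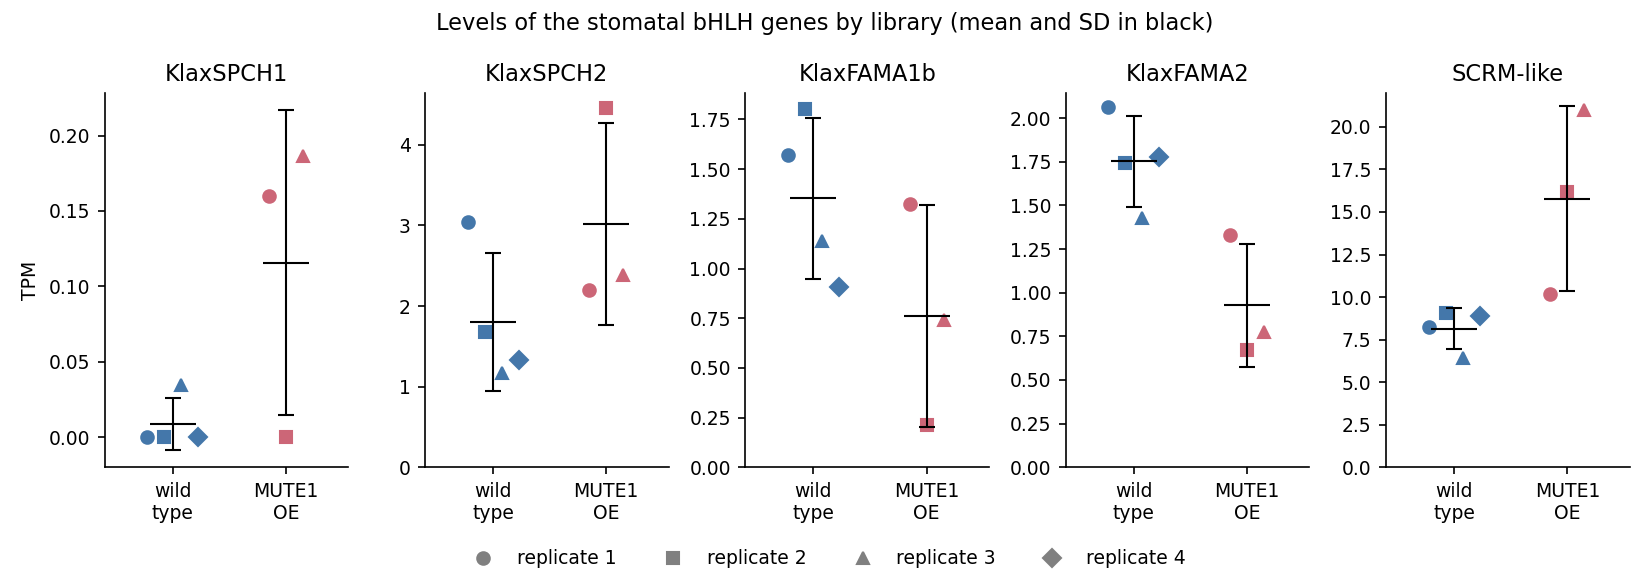
TPM of each stomatal bHLH gene in each library, with a separate vertical scale per gene; black bars give the mean and SD over 4 wild-type and 3 KlaxMUTE1 OE libraries. All 3 OE points lie below the wild type for KlaxFAMA2 and above it for SCRM-like, while the groups overlap for the other 3 genes.

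The plot of TPM by library shows that KlaxFAMA2 and SCRM-like were the members whose genotypes did not overlap, 1 in each direction. Across all tested gene models, 17.7% had every KlaxMUTE1 OE library below every wild-type library and 19.0% had every one above, on the CPM scale. A gene model was called when its adjusted p was under 0.1 and its log2 fold change above 1 or below -1, and by this call the background was 12.6% of gene models higher and 7.6% lower. Of the 5 stomatal bHLH genes, edgeR called 0 higher and 1, KlaxFAMA2, lower. The numbers were also 0 and 1 with DESeq2, with limma-voom and, in edgeR, at an unadjusted p under 0.05, except that limma-voom had 2 lower at that unadjusted p. Without the limit on the fold change, 1 was higher (SCRM-like) and 1 lower, against 19.7% and 16.1% of all gene models. Their median log2 fold change was 0.41 beside 0.07 over all tested gene models. Called shares of 1 in 5 are near this background and single out no direction for the group.

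The SPCH genes, the first in the lineage, were represented almost entirely by KlaxSPCH2. The wild-type libraries held 72, 53, 34 and 35 KlaxSPCH2 reads, and the OE lines held 55, 138 and 64. After trimmed mean of M-values (TMM) scaling these were 4.12, 2.19, 1.59 and 1.73 CPM in wild type and 2.60, 4.37 and 2.61 CPM in the OE lines. Line 2 was the highest of the 7 libraries, wild-type replicate 1 came next, and the other libraries of both genotypes overlapped. The log2 fold change of 0.41 (SE 0.41, 95% interval -0.53 to 1.36) did not pass edgeR's quasi-likelihood test after Benjamini-Hochberg adjustment (adjusted p = 0.476). The interval holds changes in either direction, so the direction of KlaxSPCH2 stays unsettled with this spread.

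Reads of KlaxSPCH1 numbered 0, 0, 1 and 0 in wild type and 4, 0 and 5 in the OE lines. Lines 1 and 3 were above every wild-type library, and line 2, which had the most KlaxSPCH2, had none. The ratio of the counting rates, KlaxMUTE1 OE over wild type, was 9.70 with an exact 95% counting interval of 1.34 to 425. In the edgeR fit its log2 fold change was 2.91 (SE 1.45, 95% interval -0.44 to 6.27), which depends on the prior count at so few reads, and did not pass edgeR's test with Benjamini-Hochberg adjustment (adjusted p = 0.171). Without OE line 2 the adjusted p was 0.0601.

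Within the SPCH pair, KlaxSPCH1 took 1 of 195 counts in wild type, or 0.513% (exact Clopper-Pearson 95% interval 0.0130 to 2.82%). In KlaxMUTE1 OE it took 9 of 266 counts, or 3.38% (1.56 to 6.33%). By line the share was 6.78% in line 1, 0 of 138 counts in line 2 (upper bound of the interval 2.64%) and 7.25% in line 3. The intervals of the genotypes overlap, and these shares pool libraries and were given no test. The highest KlaxSPCH1 share in any of the 7 libraries was thus 7.25%.

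The FAMA genes, which act at the last step, stood lower in KlaxMUTE1 OE, and only KlaxFAMA2 passed the test. From these same libraries, the paper reports KlaxFAMA2 as down-regulated, so its fall here is no independent result. The wild-type libraries held 47, 53, 40 and 45 KlaxFAMA2 reads, and the OE lines held 32, 20 and 20. These were 2.69, 2.19, 1.87 and 2.22 CPM against 1.51, 0.634 and 0.815 CPM. Every OE line was below every wild-type library, with line 1 closest to the wild type.

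KlaxFAMA2 fell by 1.19 on the log2 scale (SE 0.39, 95% interval -2.08 to -0.30, adjusted p = 0.0573, edgeR with Benjamini-Hochberg adjustment). The log2 fold change was -1.20 with DESeq2 (adjusted p = 0.0155) and -1.30 with limma-voom (adjusted p = 0.0394). In edgeR the fall stayed in the same direction whichever library was left out. The edgeR adjusted p passed 0.1 without wild-type replicate 1 (0.102), 2 (0.108) or 4 (0.110) and without OE line 2 (0.118) or 3 (0.130).

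Of KlaxFAMA1b, 28, 43, 25 and 18 reads were counted in wild type and 25, 5 and 15 in the OE lines, or 1.60, 1.78, 1.17 and 0.890 CPM against 1.18, 0.158 and 0.611 CPM. Lines 2 and 3 were below all wild-type libraries, and line 1 lay inside the wild-type range. The log2 fold change was -1.08 (SE 0.64, 95% interval -2.55 to 0.39, adjusted p = 0.237 by edgeR with Benjamini-Hochberg adjustment). Its size was close to that of KlaxFAMA2 but its error was larger. It moved to -1.84 (adjusted p = 0.0660) without line 1 and to -0.61 (adjusted p = 0.390) without line 2.

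No shift in the balance between the FAMA paralogs was detectable. KlaxFAMA1b held 114 of 299 FAMA counts in wild type, or 38.1% (exact 95% interval 32.6 to 43.9%), and 45 of 117 in KlaxMUTE1 OE, or 38.5% (29.6 to 47.9%). By library the share was 37.3, 44.8, 38.5 and 28.6% in wild type and 43.9, 20 and 42.9% in the OE lines. Line 2 was the lowest, with an interval of 6.83 to 40.7% that reaches the wild-type values. Corrected for length, the KlaxFAMA1b share of FAMA TPM was 43.0 ± 7.04% (SD, n = 4) in wild type and 41.0 ± 14.6% (n = 3) in the OE lines. The log2 ratio of KlaxFAMA1b to KlaxFAMA2 TPM averaged -0.41 ± 0.42 and -0.57 ± 0.93, a difference of -0.16 (exact permutation test, two-sided, p = 0.743; 0.771 adjusted over 6 ratios). Without line 2 the difference was 0.38, so that line decides its sign.

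SCRM-like, the candidate dimer partner, was higher in KlaxMUTE1 OE. Its reads numbered 232, 341, 222 and 279 in wild type and 302, 596 and 670 in the OE lines, or 13.3, 14.1, 10.4 and 13.8 CPM against 14.3, 18.9 and 27.3 CPM. Line 1 was only just above the highest wild-type library, and lines 2 and 3 were clear of all of them.

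The SCRM-like gene rose by a log2 fold change of 0.65 (SE 0.24, 95% interval 0.10 to 1.19, adjusted p = 0.0805, edgeR with Benjamini-Hochberg adjustment), below the limit of 1. The direction held in each fit that left out a library, while the adjusted p passed 0.1 without any 1 of the 4 wild-type replicates (0.136, 0.139, 0.195 and 0.152 without replicates 1 to 4, edgeR). It also passed 0.1 without OE line 2 (0.107) and without line 3 (0.229, with a log2 fold change of 0.36).

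**Figure D2:**
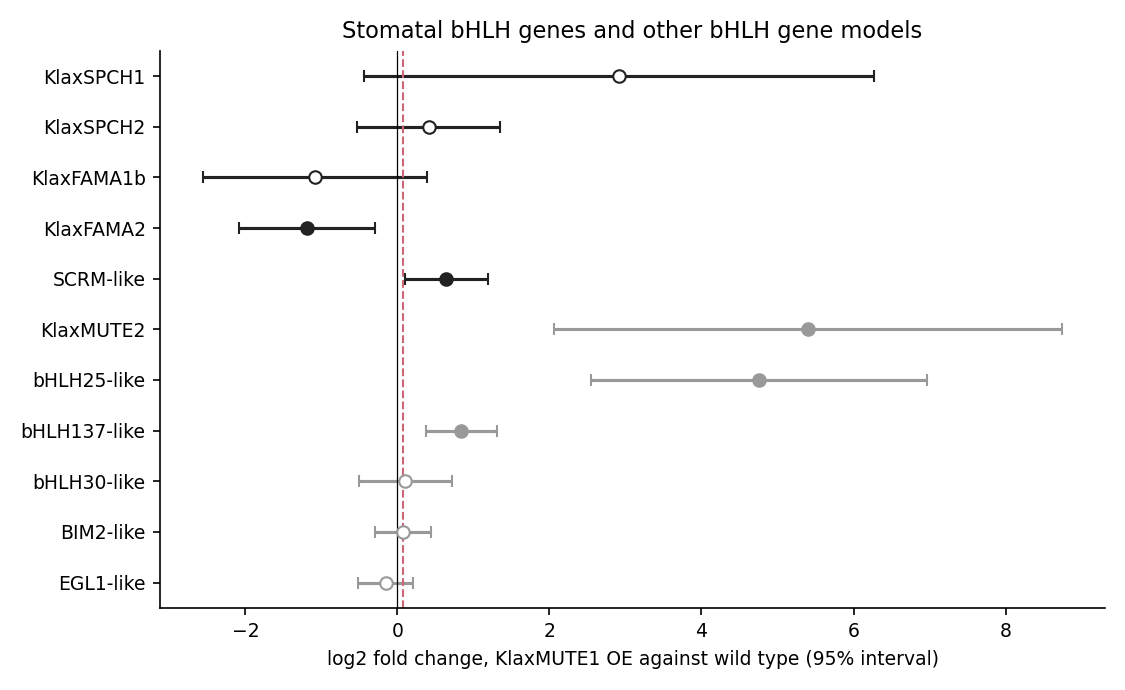
Log2 fold change of KlaxMUTE1 OE against wild type with its 95% interval from edgeR, for the 5 stomatal bHLH genes (black) and other bHLH gene models (grey); filled points have an adjusted p under 0.1 and the dashed line is the median of all tested gene models, 0.07. KlaxFAMA2 lies at -1.19 and SCRM-like at 0.65 with intervals that leave out 0, and the interval of KlaxSPCH1 is the widest of the 5.

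The plot of fold changes sets KlaxFAMA2 and SCRM-like apart from the other 3 stomatal bHLH genes by the width of the intervals as much as by their position. KlaxFAMA1b lies as far from 0 as KlaxFAMA2, with an interval that crosses it.

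Ratios between genes of the same library do not depend on how the libraries were scaled. Of such ratios, 6 were tested on the log2 TPM scale by an exact two-sided permutation test over the 35 arrangements of the libraries, with Benjamini-Hochberg adjustment over the 6. The smallest p this design allows is 0.0286. An adjusted p of 0.0857 was reached by 4 of the 6, which are those that set a FAMA gene against SCRM-like or against KlaxSPCH2. These 4 ratios share their genes with each other and with the fits above, so they are not separate results.

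KlaxFAMA2 stood at 0.251, 0.192, 0.223 and 0.200 of the SCRM-like TPM in wild type and at 0.131, 0.0416 and 0.0370 in the OE lines. All OE lines were below all wild-type libraries, and the wild-type values lay close together. The geometric means were 0.215 and 0.0586, 3.67-fold apart, and the log2 ratio was lower by -1.88 in KlaxMUTE1 OE (exact permutation p = 0.0286, adjusted p = 0.0857). Both genes of the ratio contributed, since KlaxFAMA2 fell and SCRM-like rose. As each gene alone already separated the genotypes, in opposite directions, their ratio had to separate them too. Its permutation p is therefore no further result.

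KlaxFAMA1b stood at 0.190, 0.199, 0.178 and 0.102 of the SCRM-like TPM in wild type and at 0.131, 0.0132 and 0.0353 in the OE lines. Line 1 was above wild-type replicate 4, so the groups overlapped, while lines 2 and 3 were far below. The log2 ratio averaged -2.63 ± 0.45 (SD, n = 4) in wild type and -4.67 ± 1.66 (n = 3) in KlaxMUTE1 OE, a difference of -2.04 (exact permutation p = 0.0571, adjusted p = 0.0857). Without line 2 this difference was -1.25.

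No difference was detectable in the ratio of KlaxSPCH2 to the partner gene. The KlaxSPCH2 TPM was 0.369, 0.185, 0.182 and 0.149 of that of SCRM-like in wild type and 0.217, 0.275 and 0.114 in the OE lines. The groups overlapped throughout, with wild-type replicate 1 highest and line 3 lowest. The log2 ratios averaged -2.27 ± 0.57 and -2.40 ± 0.66, and the difference of -0.13 did not pass (exact permutation p = 0.771, adjusted p = 0.771). Its sign turned when wild-type replicate 1 (0.14) or line 3 (0.24) was left out.

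Summed over both SPCH and both FAMA genes, the stage factors amounted to 81.0, 57.6, 58.8 and 45.1% of the SCRM-like TPM in wild type. In the OE lines they amounted to 49.4, 33.0 and 19.5%. Lines 2 and 3 were below every wild-type library, and line 1 lay within their range. KlaxMUTE1 itself, also a factor that works with SCRM in Arabidopsis, stood at 118, 137 and 175 times the SCRM-like TPM in these lines, and this sum leaves it out.

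The early to late stage ratio was higher in every KlaxMUTE1 OE line than in every wild-type library. Summed SPCH TPM over summed FAMA TPM was 0.836, 0.472, 0.468 and 0.495 in wild type and 0.888, 5.03 and 1.69 in the OE lines. FAMA was the more abundant in all 4 wild-type libraries and in line 1, and SPCH in lines 2 and 3. The distance between wild-type replicate 1 and line 1 was small beside the spread among the OE lines. On the log2 scale the ratio averaged -0.86 ± 0.40 (SD, n = 4) and 0.97 ± 1.26 (SD, n = 3), a difference of 1.84, which was given no test because it sums over the members.

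In counts, the SPCH genes held 49.0, 35.6, 35 and 35.7% of the reads on the 4 SPCH and FAMA models in wild type. They held 50.9, 84.7 and 66.3% in OE lines 1 to 3. The stage ratio rested on line 2 to a large extent, since the log2 difference without it was 1.16, against 2.41 without line 1.

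Gene by gene, the ratio of KlaxSPCH2 to KlaxFAMA2 TPM was 1.47, 0.961, 0.817 and 0.747 in wild type and 1.65, 6.63 and 3.07 in the OE lines. No OE line was inside the wild-type range. Its log2 value was higher by 1.74 in KlaxMUTE1 OE, with geometric means of 0.964 and 3.23 (exact permutation p = 0.0286, adjusted p = 0.0857). KlaxSPCH2 over KlaxFAMA1b was 1.94, 0.929, 1.02 and 1.47 in wild type and 1.66, 20.8 and 3.22 in the OE lines. Here line 1 fell inside the wild-type range and line 2, with 5 KlaxFAMA1b counts, stood far above the rest. The log2 difference was 1.91 (exact permutation p = 0.0571, adjusted p = 0.0857) and 0.85 without line 2.

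**Figure D3:**
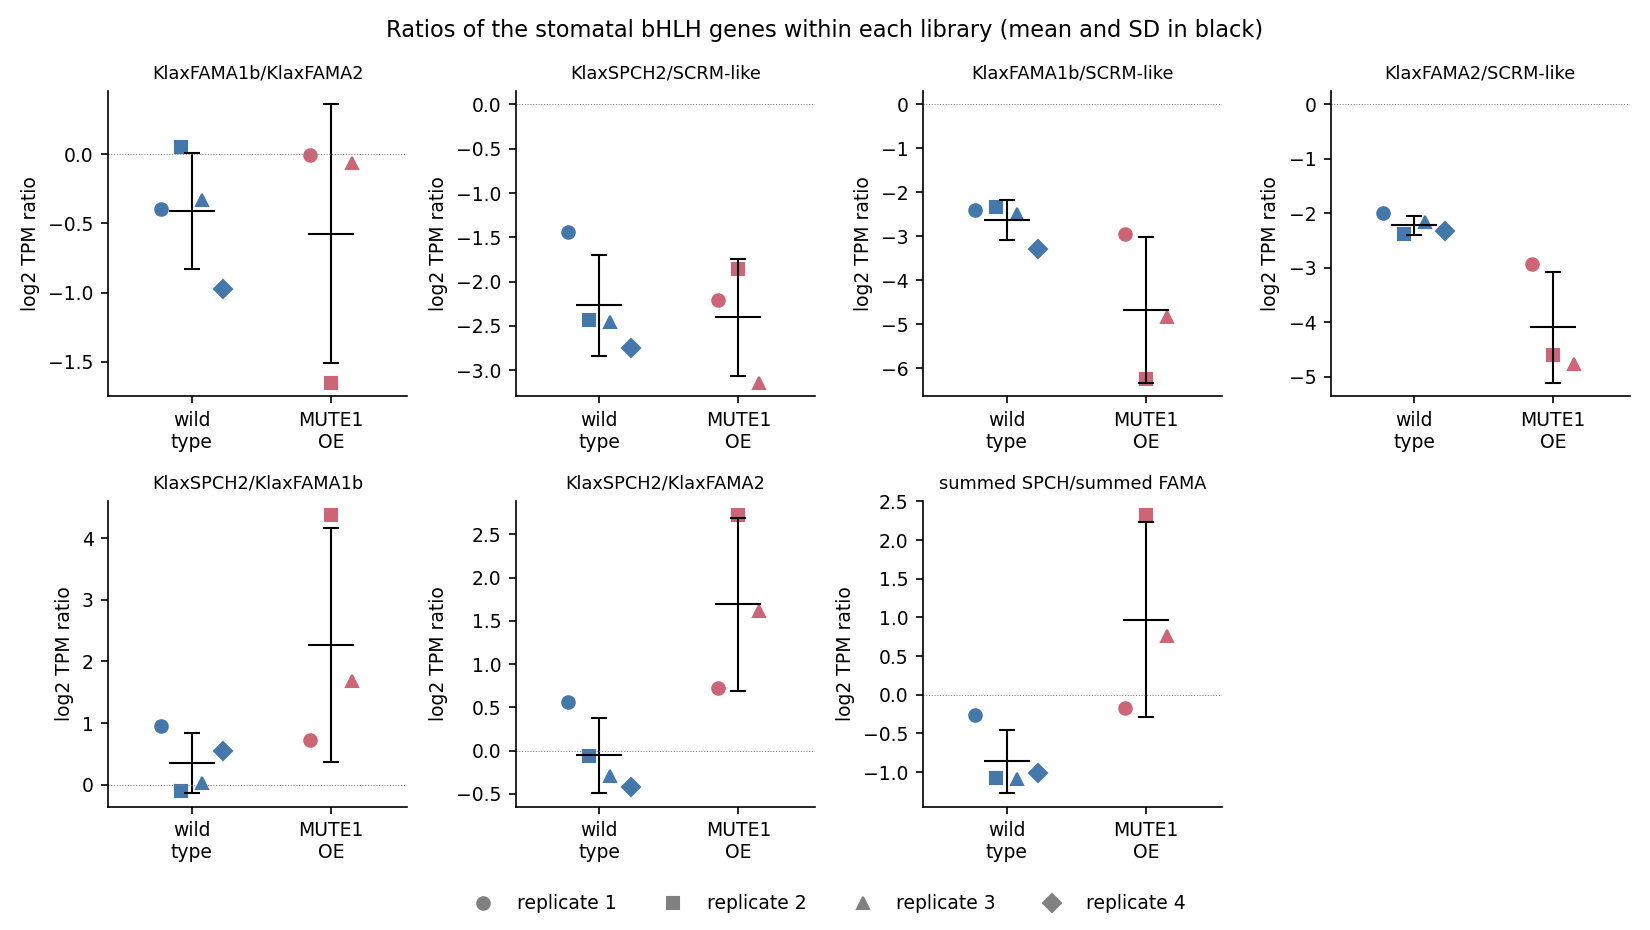
Log2 TPM ratio of the named genes in each library, with the mean and SD in black over 4 wild-type and 3 KlaxMUTE1 OE libraries; the dotted line marks equal levels and each panel has its own vertical scale. KlaxFAMA2 over SCRM-like is lower in all 3 OE lines, KlaxSPCH2 over KlaxFAMA2 and the summed SPCH over summed FAMA ratio are higher, and the remaining ratios overlap.

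The plot of log2 ratios also shows that wild-type libraries scatter by less than the OE lines in every ratio. For KlaxSPCH2 over SCRM-like, which contains no FAMA gene, the SDs were close, at 0.57 in wild type and 0.66 in KlaxMUTE1 OE. The SD of the 4 ratios with an adjusted p of 0.0857 was 0.17 to 0.49 in wild type and 1.00 to 1.89 in KlaxMUTE1 OE.

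The 3 OE lines differed among themselves, and with 1 library each the difference between lines has no error within a line. From the lowest to the highest line, KlaxMUTE1 varied 2.84-fold on the CPM scale, at 800, 1234 and 2274 CPM in lines 1 to 3. KlaxFAMA1b varied 7.45-fold among the lines and 2.00-fold among wild-type libraries. KlaxFAMA2 varied 2.38-fold and 1.44-fold, SCRM-like 1.92-fold and 1.36-fold, and KlaxSPCH2 1.68-fold and 2.59-fold. KlaxSPCH2 was therefore the only 1 of these 4 genes with a narrower range among the lines than among the wild-type libraries.

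Line 1, with the lowest KlaxMUTE1 level, was the line closest to wild type for KlaxFAMA1b, KlaxFAMA2 and SCRM-like, at 0.868, 0.673 and 1.11 times the mean wild-type CPM. Line 2 had the lowest FAMA levels, at 0.117 times the wild-type mean for KlaxFAMA1b and 0.283 times for KlaxFAMA2. It also had the highest KlaxSPCH2 level, 1.82 times the wild-type mean. Line 3, with the highest KlaxMUTE1 level, had the highest SCRM-like level, 2.12 times the wild-type mean.

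Counting error alone covers part of these differences. The exact Poisson 95% interval of KlaxFAMA1b was 0.0515 to 0.370 CPM in line 2, which does not reach that of line 1 (0.764 to 1.74 CPM), while it overlaps that of line 3 (0.342 to 1.01 CPM). For KlaxFAMA2, the intervals of lines 2 (0.387 to 0.979 CPM) and 3 (0.498 to 1.26 CPM) overlapped, and that of line 1 (1.03 to 2.13 CPM) was clear of line 2 only. For SCRM-like, the intervals of the 3 lines did not overlap, at 12.7 to 16.0, 17.4 to 20.5 and 25.3 to 29.5 CPM.

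**Figure D4:**
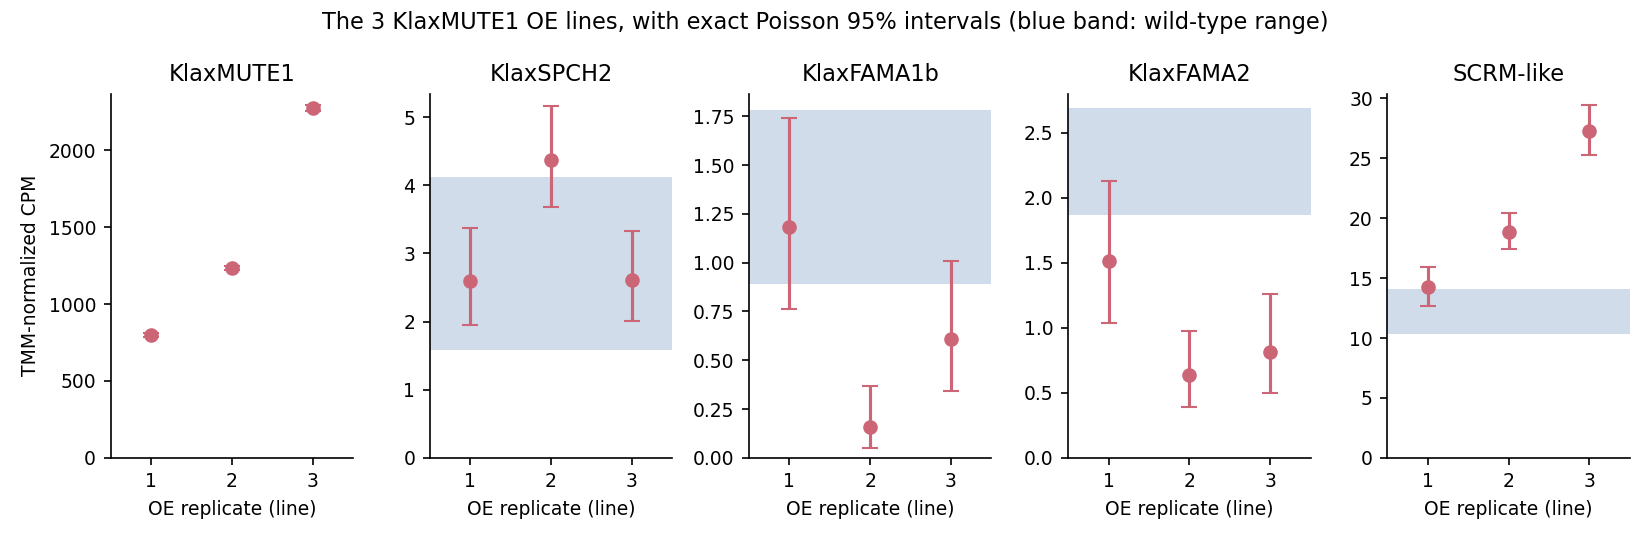
TMM-normalized CPM in each of the 3 KlaxMUTE1 OE lines with exact Poisson 95% intervals, which cover counting error only; the blue band spans the 4 wild-type libraries, and KlaxMUTE1 had 0 counts in them. Lines 2 and 3 are below the band for both FAMA genes and above it for SCRM-like, while line 1 lies near or inside it.

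The plot of the OE lines makes the order of the lines visible: SCRM-like had the same order as KlaxMUTE1, and neither FAMA gene did, since line 2 was lowest for both. With 3 lines this order is a description.

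KlaxMUTE2 (KlGene023418), the sister gene of KlaxMUTE1, was counted 6, 0, 0 and 0 times in wild type and 174, 13 and 43 times in the OE lines. Its log2 fold change was 5.40 (adjusted p = 0.0324, edgeR with Benjamini-Hochberg adjustment). All OE lines were above all wild-type libraries. The paper reports KlaxMUTE2 as up-regulated from the same libraries. The size of this change depended on single libraries, at 9.33 without wild-type replicate 1, which held all 6 wild-type reads, and 3.73 without line 1. The highest KlaxMUTE2 level was in line 1, the line with the least KlaxMUTE1.

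The gene lists that follow were drawn from 1190 of the 27768 gene models, those with annotation notes at hand. They are parts of their gene families. Of 10 other gene models annotated with a bHLH domain, 5 had enough counts to be tested. By the call with the fold limit, 1 was higher and 0 were lower. At an unadjusted p under 0.05, edgeR also had 0 lower, as did DESeq2. The higher one was a bHLH25-like gene (KlGene000797), with 0, 0, 0 and 2 reads in wild type and 18, 19 and 23 in the OE lines. Its counting rate was 32.3 times higher in KlaxMUTE1 OE (exact 95% interval 8.57 to 273, counting error only), and its adjusted p by edgeR was 0.0128. A bHLH137-like gene (KlGene000461) rose by a log2 fold change of 0.84 (adjusted p = 0.0232 by edgeR), under the limit. The median log2 fold change of the 5 was 0.10, close to the 0.07 of all gene models.

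Of 6 cell cycle gene models, edgeR called 3 higher and 0 lower, beside 12.6% and 7.6% of all gene models, with a median log2 fold change of 1.66. None was lower at an unadjusted p under 0.05 in edgeR or DESeq2, and 1 was in limma-voom, the CYCP3-1-like gene (a P-type cyclin). A CYCD3-2-like gene (a D-type cyclin of the G1 to S step) rose by 6.08, a CYCB2-4-like gene (a mitotic cyclin) by 2.91 and an MCM7-like gene (a subunit of the replication helicase) by 2.01. Their adjusted p by edgeR were 0.00311, 0.00330 and 0.0164. The CYCP3-1-like gene (KlGene000574) went the other way, at 1.03, 1.04, 0.654 and 1.09 CPM in wild type and 0.614, 0.285 and 0.530 CPM in the OE lines. Every OE line was below every wild-type library, and its log2 fold change of -1.002 did not pass (adjusted p = 0.131, edgeR).

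Of 4 photosynthesis models, 2 were called lower and 0 higher, beside the same 7.6% and 12.6% of all gene models. An LHCII type I-like gene fell by 1.62 (adjusted p = 0.00384) and an LHCB4.2-like gene fell by 1.08 on the log2 scale (adjusted p = 0.0561, edgeR), both being light-harvesting proteins. For LHCB4.2-like the adjusted p passed 0.1 without wild-type replicate 3 (0.106), OE line 2 (0.118) or OE line 3 (0.117), and with limma on TPM (0.148 and 0.173 with pseudocounts of 1 and 0.1). The RBCS1-like gene had a log2 fold change of -0.86 (adjusted p = 0.0776, edgeR), short of the limit. A BCA2-like gene, a carbonic anhydrase, lay in the other direction, at 1136 CPM on average in wild type and 1725 CPM in the OE lines. Lines 1 and 3 were above all wild-type libraries and line 2 below them, and its log2 fold change of 0.60 did not pass (adjusted p = 0.164 with edgeR), while DESeq2 gave an adjusted p of 0.0994. Both HT1-like kinases, related to a guard cell kinase of the carbon dioxide response in Arabidopsis, had log2 fold changes of 0.35 and 0.37 that did not pass (adjusted p = 0.193 and 0.173, edgeR).

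Gene models with a pattern most like each member were sought among up to 779 named models of the part of the annotation used here, by the root-mean-square (RMS) difference of centred log2 CPM over the 7 libraries. For KlaxSPCH2 these were an FPGS2-like (KlGene000412, 0.236) and a PAT23-like model (KlGene000464, 0.242). For KlaxFAMA1b they were a remorin-like (KlGene000908, 0.303) and a PCMP-H88-like model (KlGene001059, 0.410), and for KlaxFAMA2 an SBEI-like (KlGene000655, 0.165) and a PSRP3-like model (KlGene000774, 0.200). For SCRM-like they were a QWRF8-like (KlGene001067, 0.173) and a VAR3-like model (KlGene000005, 0.190). The median RMS difference of all candidates was 0.688 for KlaxSPCH2, 1.01 for KlaxFAMA1b, 0.807 for KlaxFAMA2 and 0.621 for SCRM-like. The neighbours of KlaxFAMA2 encode a starch branching enzyme and a plastid ribosomal protein by their notes. Since the measure includes the difference between genotypes, the direction of each neighbour was fixed by its selection.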

How the data were processed

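Reads of poly(A)-enriched libraries were aligned by the authors with HISAT2 to their OBG genome, and htseq-count gave the counts of each gene model. The deposited counts are not normalized, and the deposited TPM values are counts divided by gene length and scaled to 1000000 per library. For tool versions, strand and the treatment of reads shared between paralogs, the sources used here give nothing, so reads of similar copies may be split between SPCH or FAMA models. Whether the deposited lengths include introns is also not given, and TPM ratios between genes depend on them. Columns headed as mean TPM hold mean counts and were not used.

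Counts of 21902 gene models (a sum of 10 or more over the 7 libraries, all 5 members among them) were tested with edgeR 4.0.16 in R 4.3.3 (TMM, quasi-likelihood, Benjamini-Hochberg adjustment over all models). Standard errors come from the F statistic. The call was an adjusted p under 0.1, with an absolute log2 fold change over 1 beside it. CPM are TMM-normalized. Ratios used TPM, and exact permutation and binomial intervals used scipy 1.17.1. Alternatives were DESeq2 1.42.0, limma 3.58.1, other scalings and filters, each library left out and the replicate number as a block. The scripts were tested on simulated data. Members and gene lists were chosen with earlier results of these data known. Named were the members, KlaxMUTE1, KlaxMUTE2, the listed genes that passed the call or made up a small count, and the 2 nearest models of each member with a mean of at least 20 counts per library. The replicates are separate plants or lines. The binomial, Poisson and count-ratio intervals cover counting error only and leave out the spread between plants or lines. Amplified reads that carry no molecular identifier can stem from 1 molecule, so these intervals may understate even the counting error. Intervals of fold changes include the spread between libraries. No sequences are printed here.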

Additional observations from a re-analysis of the deposited data

Results flagged for a closer look

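Of 13 measures tested in the 4 wild-type libraries, 4 had a library far from the others, where the gap to the nearest library divided by the range passed the 95% limit of Dixon's test, as about 1 measure in 20 does by chance. For KlaxSPCH1 the gap was 1 of the range on the CPM scale and 1 for its share of the SPCH counts, both from the single read of wild-type replicate 3. With no reads in the other wild-type libraries this gap was fixed, so both flags are the same event. The measures also share genes, so the number flagged cannot be set against the chance rate. The log2 ratio of KlaxFAMA1b to SCRM-like had a gap of 0.831, from the low value of wild-type replicate 4. The log2 ratio of summed SPCH to summed FAMA TPM had a gap of 0.903, from the high value of wild-type replicate 1.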

How the results depend on the processing

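KlaxFAMA2 kept its direction under all 18 alternatives. It lost its call with the replicate number as a block (log2 fold change -1.26, adjusted p = 0.129) and in the 5 leave-one-out fits named in the report. The call was also lost with limma on TPM, where the fold change fell short of the limit of 1. There the log2 fold change was -0.53 and -0.89 with pseudocounts of 1 and 0.1 (adjusted p = 0.0476 and 0.0556, limma). Over all 7 leave-one-out fits KlaxFAMA2 ran from -1.63 to -0.95, the lowest without OE line 1, where the call held. SCRM-like was 0.61 with limma-voom (adjusted p = 0.104) and 0.64 under the replicate block (adjusted p = 0.236), and 0.36 to 0.84 with 1 library left out. It was 0.66 with DESeq2 (adjusted p = 0.0615) and 0.84 with edgeR on library size alone (adjusted p = 0.0397). With limma on TPM it was 0.83 and 0.90 with pseudocounts of 1 and 0.1 (adjusted p = 0.0441 and 0.0410). Of 18 alternatives for SCRM-like, 10 kept an adjusted p under 0.1 and 8 did not. KlaxSPCH1 ran from 2.56 to 3.51 over the 4 leave-one-out fits in which it reached 10 counts, and it was not tested under filterByExpr. KlaxFAMA1b ran from -1.84 to -0.61. Leave-one-out differences in log2 ratio ran from -2.90 to -1.25 for KlaxFAMA1b over SCRM-like, -2.46 to -1.54 for KlaxFAMA2 over SCRM-like, 0.85 to 2.67 for KlaxSPCH2 over KlaxFAMA1b, 1.23 to 2.23 for KlaxSPCH2 over KlaxFAMA2, -0.40 to 0.24 for KlaxSPCH2 over SCRM-like (0.14 without wild-type replicate 1) and -0.45 to 0.38 for KlaxFAMA1b over KlaxFAMA2. With 1 library left out none of these had an adjusted p under 0.1, where the smallest raw p is 0.1 without 1 wild-type library and 0.0667 without 1 OE library. With the replicate block, the differences were -2.26, -1.91, 1.97 and 1.62 in the order of the first 4 ratios, where the smallest p that sign flips of 3 pairs can give is 0.25. Over all gene models the block left 1534 higher and 1219 lower of 2761 and 1665. Same-numbered libraries correlated by 0.129, 0.0805 and 0.0817, the highest value of each OE library. These correlations were weak, and OE line 2 reached nearly as much, 0.0769, with wild-type replicate 3. The numbers come from the sample titles, and no pairing of wild-type plants with OE lines is described. The block is thus an alternative fit without a basis in the design. With library size alone, 2 other bHLH models were called higher and 1 photosynthesis model lower, and the median of all gene models moved to 0.27. Directions turned for bHLH30-like without wild-type replicate 3 (-0.035) and for EGL1-like with limma on TPM (0.14 with either pseudocount) and library size alone (0.043). The causes were not tested. Members other than SCRM-like had at most 138 counts in a library, which limits every value given for them.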
